A study of Apis mellifera with 79 samples.

Results

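The 150 genes described here were those with higher RNA in the brains of foragers than of nurses in each of the unexposed arms of the study, the field colonies and the apiary colonies. They were taken from 9904 genes that were in all 4 deposited tables and had a mean log2 CPM (reads of a gene scaled to a fixed library total, on the log2 scale) of at least 1 in the apiary foragers and in the apiary nurses. The tables held 11525 genes in all, of which 10714 were in all 4. Each library was set to 0 at its own median gene, the forager mean minus the nurse mean was taken over the unexposed libraries of each study, and the 150 genes with the highest smaller difference were kept. The members were thus chosen by the forager minus nurse difference in unexposed bees, and only the exposed bees were tested for the difference between castes. The fed bees entered the choice only through the minimum of level, since each apiary table held fed and unfed bees, and the pools near corn did not enter it beyond being in the tables.

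Honey bee workers change tasks as they age. A nurse feeds larvae inside the hive, a forager leaves it to collect pollen and nectar, and the passage from the first task to the second comes with a rise in juvenile hormone and broad changes of brain RNA. Kr-h1 is a zinc finger transcription factor that responds to juvenile hormone in insects. Hairy is a transcriptional repressor known from Drosophila, where it acts in segmentation and in the development of sensory organs. Alpha-amylase digests starch, and in honey bees it is known as a product of the hypopharyngeal gland of foragers, which lies in the head near the brain.

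RNA was sequenced from 79 libraries of worker brains with the hypopharyngeal gland and the ocelli taken off. In the apiary experiment each library was 1 brain: 15 foragers and 15 nurses came from 3 colonies (C21, C23, C28) given pollen patties with clothianidin, a neonicotinoid insecticide, at 4.9 ppb in the first week and down to 2.0 ppb from week 5, and 15 and 15 came from 3 colonies (C25, C26, C27) with control patties, all taken on day 30. In the field study each library was a pool of 5 brains of 1 colony: 5 forager and 5 nurse pools from a site near corn grown from treated seed, and 5 forager and 4 nurse pools from a site at least 3 km from agriculture. Foragers were bees coming back with pollen and nurses were bees with the head in a cell holding a larva, so task was seen at collection and age was not given. Exposure could not be told apart from the site in the field or from the colonies in the apiary. The apiary libraries were sequenced in 2 runs. The first held 7 fed foragers and 6 fed nurses, but of the unfed bees with a known run only nurse C27-N10. Feeding was thus not fully separate from the run either. Of the field pools, only forager pool 1J9 away from corn was in the first run. Both pools of 2J7 were in lane 3 of the second run, and the other field pools in its lanes 1 and 2. Bees of a colony share a queen and a hive, so the p-values below measure the spread between bees of 3 colonies or between pools of 1 site. Nurse C23-N1 had the fewest reads in genes, 10.5 M, and the highest library 45.1 M. No member was at 0 reads in any of the 79 libraries, and all 150 entered every test.

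The gene IDs could be paired with a name for 3 members only, Kr-h1 (GB43022), hairy (LOC410468, GB47799) and alpha-amylase (LOC406114, GB49854), and the others are given by ID. The pairing of alpha-amylase with its ID rests on a match of its fold change between sources, not on a table of names. The only fold change the paper's text prints for it is that of field nurses near against away from corn. Gene lists for pathways and for cell types of the head could therefore not be applied, and the share of RNA from other tissues was not tested. A dissected brain that holds fewer cells of a type and one that holds less RNA per cell cannot be told apart in these libraries.

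By the rule itself the members had a forager minus nurse difference of 0.54 to 4.5 on the log2 scale in the unfed apiary colonies, with a median of 0.93, and of 0.53 to 3.06 in the field pools away from corn, with a median of 0.78. The first of the 150 was GB43247, with differences of 2.91 and 2.09, followed by alpha-amylase with 4.5 and 2.01. Kr-h1 was at rank 14 and hairy at rank 136. The smaller difference was 0.526 and 0.525 for the last pair inside the list and 0.523 and 0.518 for the first pair outside it. These values made the list and carry no test.

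In the clothianidin-fed apiary bees, 129 of the 150 members were higher in foragers and none was lower (limma, Benjamini-Hochberg adjusted p below 0.05 over 10714 genes). Over all those genes, 25.1% were called higher and 20.7% lower in foragers. The median difference of the members was 0.92 on the log2 scale, a 1.90-fold higher level in foragers, against 0.02 over the 9904 genes the members came from. All 150 members had a forager mean above the nurse mean, from 0.01 for GB47029 to 3.16 for alpha-amylase, and the quartiles of the list were 0.70 and 1.29. The median standard error of a member's difference was 0.22.

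In the pools near corn, 130 of the 150 members were higher in foragers and none was lower (limma, adjusted p below 0.05), against 7.35% of all genes called higher and 10.2% lower there. The median difference was 1.01, a 2.01-fold higher level, against −0.02 over the 9904 genes. The members ran from −0.01 for GB47029 to 5.61 for alpha-amylase, with quartiles of 0.74 and 1.33. In all, 119 members were called in both exposed comparisons, 10 in the fed apiary bees only, 11 near corn only and 10 in neither. A difference above 1 was reached by 68 members in the fed bees and by 77 near corn, and 46 of these were the same genes. The matching shares over all genes were not taken for these joint counts and counts above 1, so they describe the members only. The exposed castes of the 2 studies have no library in common.

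**Figure D1:**
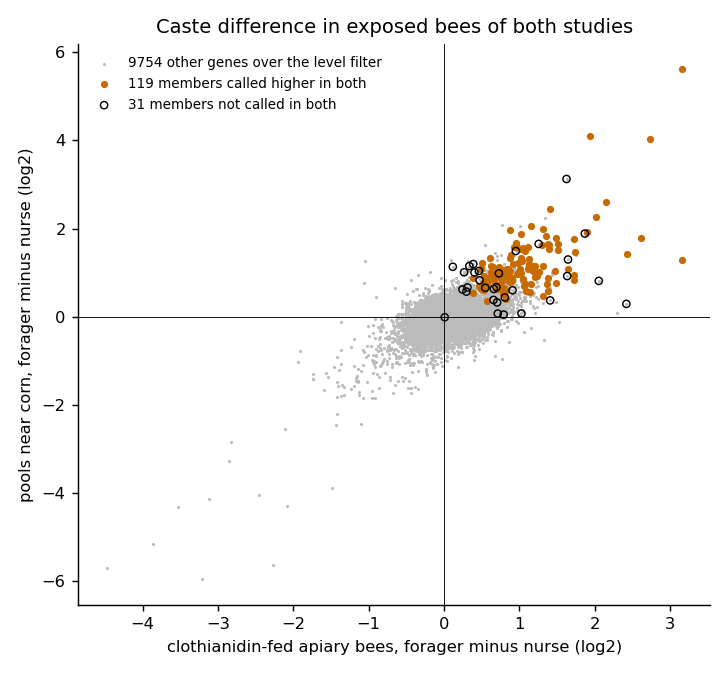
Forager minus nurse difference (log2) of each gene in clothianidin-fed apiary bees (horizontal) and in pools near corn (vertical), for the 150 members and the 9754 other genes over the level filter. The 119 members called higher in both comparisons (orange) lie to the upper right, and of the 31 others (open circles) GB47029 lies at the origin.

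Within colonies the difference had the same direction for nearly all members. Foragers were above nurses for 144 of 150 members in C21, 145 in C23 and 150 in C28, and for 140 in all 3 fed colonies, where 29.4% of the 9904 genes were higher in all 3. Near corn, the forager pool was above the nurse pool of its own colony for 139 to 146 members, and in all 5 colonies for 127, against 13.9% of the 9904 genes. Over the 8 exposed colonies together, 121 members were higher in foragers in every colony, and 5.00% of the genes were. The fed bees were sequenced in 2 runs. The median member difference was 0.90 within the first run (7 foragers, 6 nurses) and 0.98 within the second (8 foragers, 9 nurses). The second run alone left 83 members called. Near corn it was 0.87 in lane 1 and 1.03 in lane 2.

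Single bees, of which there were more per group, overlapped far more than pools did. In the fed bees only 7 members had every one of the 15 foragers above every one of the 15 nurses, against 0.172% of the 9904 genes, and in the unfed bees, which chose the list, it was 20 members and 0.525%. Near corn 104 members had all 5 forager pools above all 5 nurse pools, against 5.28% of genes. Away from corn, again by the rule's own libraries, it was 71 members and 2.95%. Of the 225 pairs of a fed forager and a fed nurse, the median member had 12.9% in reverse order, and GB47029 had 48.4%. No member separated all foragers from all nurses over all 79 libraries.

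The mean over the 150 members in each library shows which bees stood apart. It ran from −0.97 to 0.14 in fed foragers (median 0.04) and from −1.74 to −0.44 in fed nurses (median −1.15). In the unfed bees it was −0.09 to 0.19 in foragers and −1.70 to −0.64 in nurses, with no overlap. The 5 forager pools near corn lay between −0.11 and 0.26 and the 5 nurse pools between −1.26 and −0.89. Away from corn the forager pools lay between −0.17 and 0.22, and the 4 nurse pools were at −1.43 (2J6), −1.20 (2J10), −0.77 (1J7) and −0.36 (2J7).

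The library labelled as forager C21-F3 had the mean of −0.97, within the range of the nurses and below 6 of the 15 fed nurses, while the next lowest fed forager was at −0.35. In it 107 of the 150 members were nearer to the median of the fed nurses than to that of the other fed foragers, where the median forager had 26. The library labelled as nurse C23-N4 had the highest mean of the nurses, −0.44, with 93 members nearer to the foragers. The nurse pool 2J7 away from corn had 100 such members. A list of 150 genes highest in nurses, made by the same rule with the sign turned, gave the matching picture in these single bees: its mean was −0.46 in C21-F3, the highest of the fed foragers (−2.12 to −0.46), and −1.36 in C23-N4, the lowest of the fed nurses (−1.36 to −0.05). The match was not complete. C21-F3 had a hairy level of 1.11 and a GB50091 level of 3.13, both near the forager medians of 1.12 and 3.25, but a Kr-h1 level of −2.62 and an alpha-amylase level of −4.00.

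Without C21-F3 and C23-N4 the median member difference in fed bees was 1.06 and 134 members were called. The share of all genes called in that fit was not set beside this count, so the count describes the members only. The members with no overlap rose from 7 to 14, while 0.414% of the genes then had none. These bees were picked because they lay toward the other caste, so a rise follows from the choice. Away from corn, leaving out the nurse pools 1J7 and 2J7 raised the members with no overlap from 71 to 133, with 7.35% of the genes. These were the nurse pools there with the highest means, in libraries that chose the list, so that rise also follows from the choice. The list itself would have kept 112 of its 150 members.

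**Figure D2:**
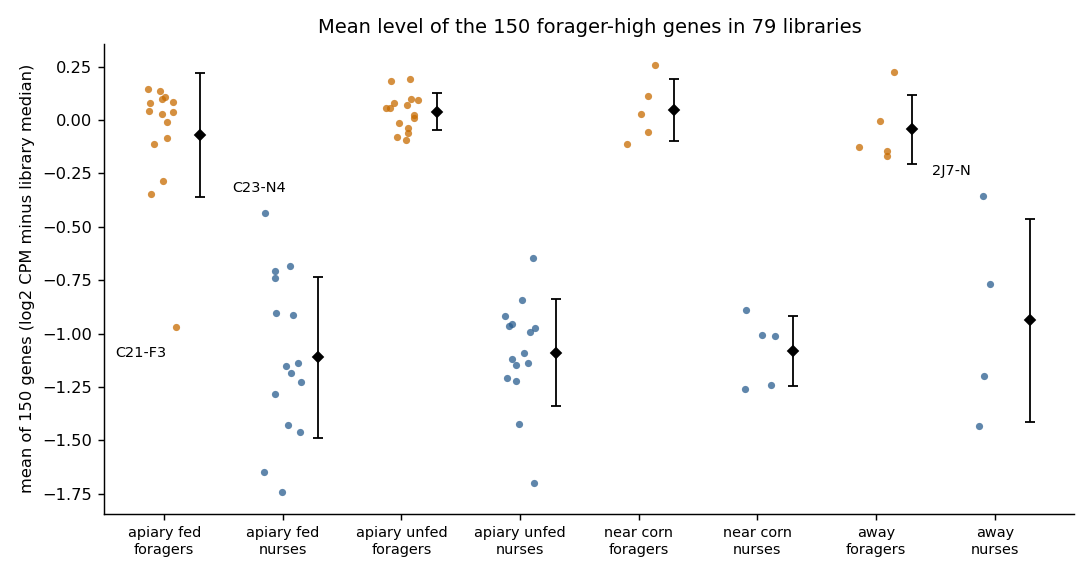
Mean over the 150 members (log2 CPM minus the library's median gene) in each of the 79 libraries by group, foragers in orange and nurses in blue, with the group mean and SD as diamonds and bars. Forager C21-F3 (−0.97) lies among the nurses, and nurse C23-N4 (−0.44) and nurse pool 2J7 (−0.36) are the highest nurse libraries of their groups.

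Kr-h1 was higher in foragers of each exposed set. Levels in the fed foragers ran from −3.36 to −0.01 with a median of −0.62, and in the fed nurses from −4.00 to −1.16 with a median of −2.36. The difference was 1.39 ± 0.34 (SE), 2.63-fold, adjusted p = 0.00167 by limma, and without colony C21 it was 1.12 with adjusted p = 0.0514. Most fed foragers were above the nurses, but 4 were at −1.92 or lower: C28-F5 (−3.36), C21-F3 (−2.62), C28-F3 (−2.39) and C28-F4 (−1.92). Near corn the forager pools of colonies 2J1 to 2J5 were at −1.11, −0.80, −0.50, −0.82 and −0.90 and the nurse pools of the same colonies at −2.50, −2.11, −3.12, −2.86 and −1.65. The groups did not overlap, and the difference was 1.62 ± 0.24 (SE), 3.08-fold, with adjusted p = 0.00199. Away from corn the 5 forager pools were at −0.34 to −0.08 and the nurse pools at −2.13, −1.93, −1.80 and −0.49, the last in pool 2J7. All 5 forager pools near corn were thus below all 5 away from corn, a difference that shares the rule's own libraries and was not tested.

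Hairy had the smallest spread in the fed groups of the 3 members with a name. Its level was 0.36 to 1.61 in fed foragers (median 1.12) and −0.70 to 0.77 in fed nurses (median 0.12), and the difference was 1.05 ± 0.13 (SE), 2.07-fold, adjusted p = 6.23e-07 by limma. Only 2 of the 225 pairs of a fed forager and a fed nurse were in reverse order. Near corn the forager pools of 2J1 to 2J5 were at 0.09, 1.24, 0.83, 1.16 and 0.97 and the nurse pools at 0.17, −0.38, 0.05, 0.34 and −0.18. Only the forager pool of 2J1 lay within the nurse range, and the difference was 0.86 ± 0.21 (SE), 1.81-fold, with adjusted p = 0.0182. This call was lost without forager pool 2J2, where the difference was 0.76 and adjusted p = 0.0501. Away from corn the forager pools lay between 0.03 and 0.51, and nurse pools 1J7 (0.46) and 2J7 (0.22) lay within that range.

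Alpha-amylase, the starch-digesting enzyme, had the largest difference of all members in each exposed set, just above GB50091 in the fed bees, and the widest scatter of the 3 members with a name. In fed foragers its level ran from −4.00 to 3.74 with a median of 0.45, and in fed nurses from −5.24 to 2.73 with a median of −3.37. The difference was 3.16 ± 0.85 (SE), 8.92-fold, adjusted p = 0.00329 by limma. It was below the median gene in 6 of 15 fed foragers and above it in 1 of 15 fed nurses, C23-N4. The 5 foragers of C28 were at 0.43 to 3.74, whereas those of C21 and C23 spanned −4.00 to 2.94. Without C28 the difference was 1.97 with adjusted p = 0.167, and with the second run alone it was 2.28 with adjusted p = 0.150. On the 6 means of caste and colony, paired by colony, adjusted p was 0.0693.

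The pools near corn were far more even for alpha-amylase. The forager pools of 2J1 to 2J5 were at 1.99, 2.27, 2.42, 2.34 and 2.72, which were 3762 to 6726 reads, and the nurse pools at −3.71, −2.11, −3.43, −3.79 and −3.28, which were 59 to 227 reads. The groups lay far apart, and the difference was 5.61 ± 0.28 (SE), 48.8-fold, with adjusted p = 2.29e-06, the lowest of the members there. Away from corn the forager pools were at 2.46 to 4.48, but the nurse pools fell into a high pair, 1J7 at 3.65 and 2J7 at 3.19, and a low pair, 2J10 at −1.15 and 2J6 at −1.66.

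GB43247, first by the rule, and GB55207, at rank 40, varied with alpha-amylase from bee to bee. The first gave 2058 to 197778 reads in a fed forager. Its level was 1.38 to 7.56 in fed foragers and −0.50 to 6.29 in fed nurses, the highest nurse being C23-N4, and the difference was 2.74 ± 0.54 (SE), 6.67-fold, adjusted p = 0.000186. Near corn the forager pools were at 5.43 to 7.30 and the nurse pools at 0.84 to 2.75, and the difference was 4.02 ± 0.40 (SE), 16.3-fold, adjusted p = 0.000431. Away from corn nurse pools 1J7 (6.09) and 2J7 (5.82) again lay within the forager range of 5.12 to 7.30, and 2J6 (1.80) and 2J10 (2.49) did not. GB55207 differed by 3.13 ± 0.54 (SE) near corn, adjusted p = 0.00416, and by 1.63 ± 0.88 (SE) in the fed bees, where adjusted p was 0.130, and 0.0442 without C21-F3 and C23-N4.

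Over the 15 bees of a group, GB55207 followed alpha-amylase with Pearson's r of 0.91 in fed foragers, 0.94 in unfed foragers, 0.81 in fed nurses and 0.79 in unfed nurses. It was the only member with r of at least 0.7 in all 4 groups. For GB43247 and alpha-amylase r was 0.76, 0.86, 0.65 and 0.46. Each r is over bees that share 3 colonies and is given as a description. The hypopharyngeal gland had been removed, and how much gland RNA the libraries held was not tested.

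Kr-h1 had 4 such companions among the members, and the closest was GB45427, at rank 9, with r of 0.96, 0.98, 0.93 and 0.94 in the same order of groups. GB45427 was at −3.79 to 0.08 in fed foragers and −5.74 to −1.23 in fed nurses, and differed by 2.01 ± 0.50 (SE), adjusted p = 0.00188. Near corn the forager pools of 2J1 to 2J5 were at −0.99, −0.66, −0.04, −0.39 and −0.63, the nurse pools at −2.97, −2.29, −3.61, −3.39 and −1.83, and the difference was 2.27 ± 0.32 (SE), adjusted p = 0.00143. The groups did not overlap in the pools. The places of the 2 genes on the genome were not used here, so shared reads between them were not tested.

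**Figure D3:**
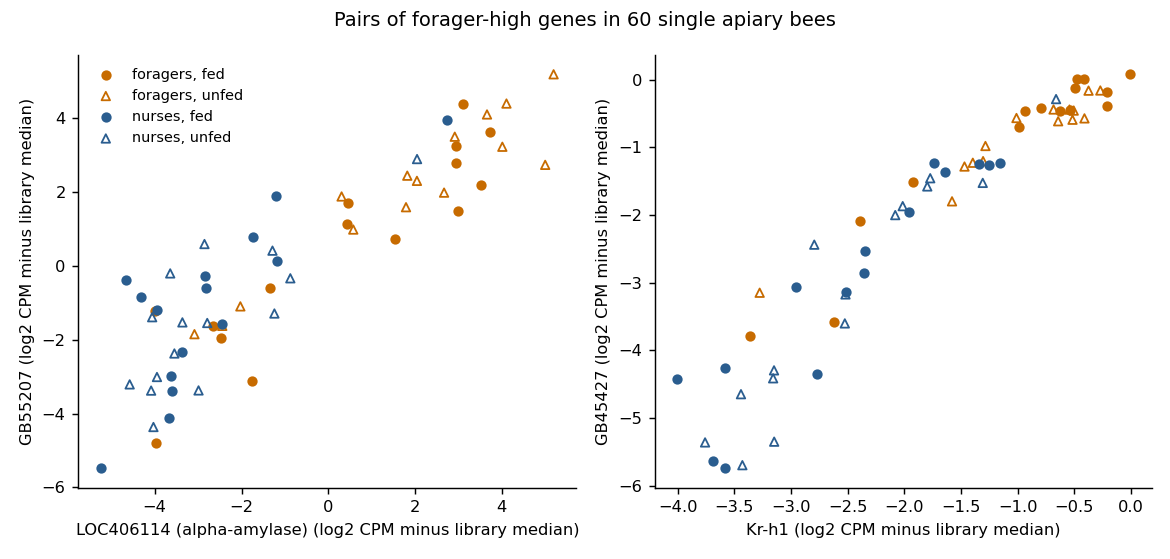
Levels (log2 CPM minus the library's median gene) of alpha-amylase against GB55207 (left) and of Kr-h1 against GB45427 (right) in 60 single apiary bees, foragers in orange, nurses in blue, fed bees filled and unfed bees open. Both pairs rise together within each caste, with r of 0.79 to 0.94 on the left and 0.93 to 0.98 on the right over the 15 bees of a group.

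The members that separated single bees best were others. GB50091 had a level of 1.56 to 3.95 in fed foragers and −1.0 to 0.88 in fed nurses, with no overlap, and its difference of 3.15 ± 0.22 (SE), 8.91-fold, had an adjusted p of 1.94e-11, the lowest among the members in the fed bees and the same as that of GB50871, at rank 28. In the field it was less even: the forager pools of 2J1 to 2J5 near corn were at 0.63, 2.05, 1.71, 2.08 and 2.16, and the nurse pools at 0.75, −0.45, 0.51, 1.37 and 0.03. The forager pool of 2J1 lay below 2 nurse pools, and the difference was 1.29 ± 0.35 (SE), 2.44-fold, with adjusted p = 0.0306. That call was lost in 6 of the 10 fits that left out a pool, with adjusted p of 0.0623 to 0.0761 in those 6.

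GB44503 and GB47136, at ranks 24 and 26, were the only members whose foragers and nurses did not overlap in any of the 4 sets of libraries. Of these sets, the unfed bees and the pools away from corn had chosen the list. The share of all genes with no overlap in all 4 was not taken. GB44503 was at 2.97 to 4.11 in fed foragers and 1.91 to 2.82 in fed nurses, a difference of 1.15 ± 0.12 (SE) with adjusted p = 3.55e-08, and near corn the difference was 0.74 ± 0.13 (SE) with adjusted p = 0.00466. GB47136 was at 3.17 to 4.32 in fed foragers and 1.88 to 3.03 in fed nurses. Its differences were 1.36 ± 0.12 (SE) in the fed bees, adjusted p = 2.17e-09, and 0.75 ± 0.11 (SE) near corn, adjusted p = 0.00192. These differences are smaller than that of alpha-amylase, but the SD within a fed group was 0.28 to 0.38, against 1.94 to 2.84 for alpha-amylase.

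**Figure D4:**
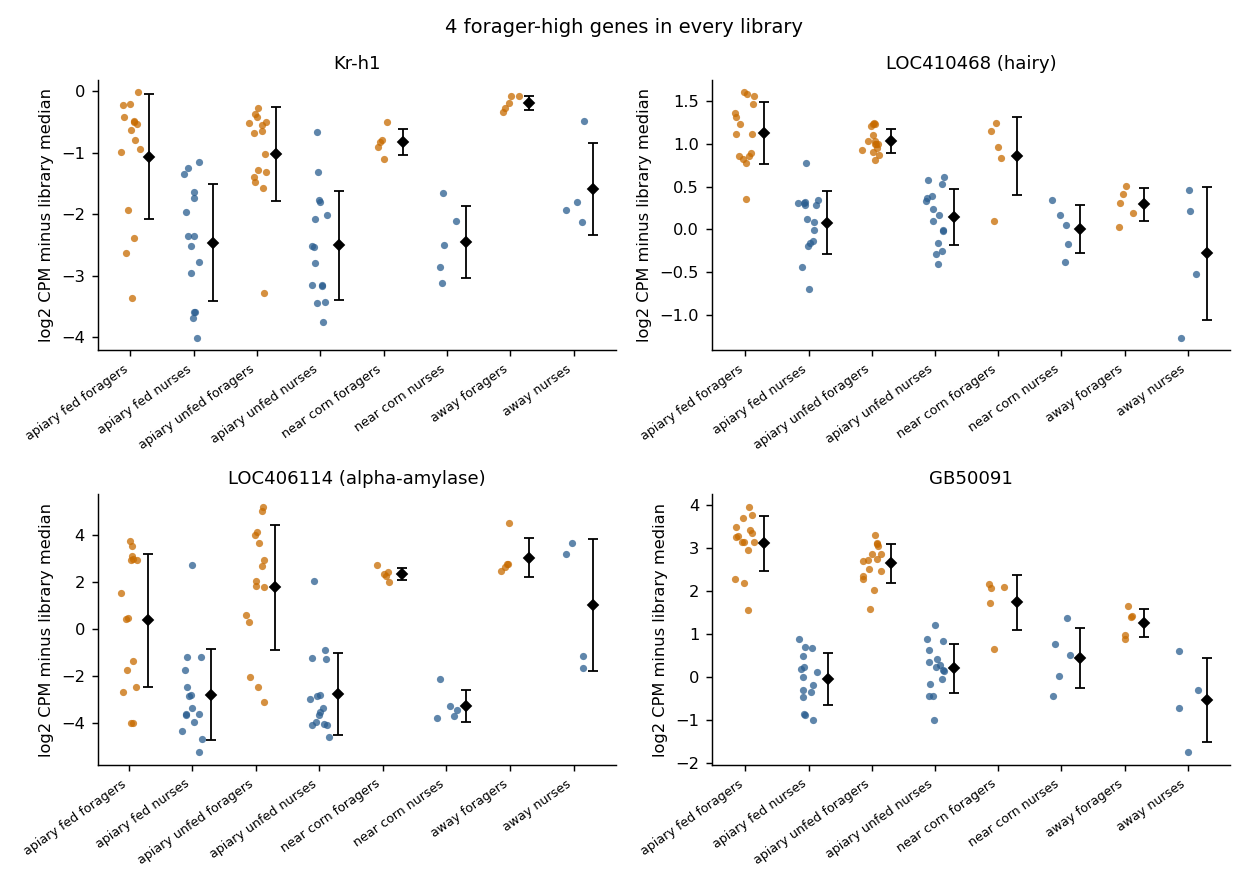
Levels (log2 CPM minus the library's median gene) of Kr-h1, hairy, alpha-amylase and GB50091 in every library by group, foragers in orange and nurses in blue, with the group mean and SD as diamonds and bars. Alpha-amylase spans −4.00 to 3.74 within the fed foragers, whereas GB50091 keeps fed foragers (1.56 to 3.95) and fed nurses (−1.0 to 0.88) apart.

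GB50423, at rank 18, was the most variable member and was either high or low in single bees of each caste. Its level ran from −6.38 (9 reads) to 6.46 (67576 reads) in fed foragers and from −7.11 (7 reads) to 6.47 (95575 reads) in fed nurses. It was above the median gene in 6 of 15 fed foragers and 4 of 15 fed nurses, and in 6 of 15 unfed foragers and 1 of 15 unfed nurses. All 5 foragers of C28 and all 5 of C26 were high, at 0.66 to 6.23 and at 3.46 to 5.29, and no forager or nurse of C23 or C25 was above −2.18. The 5 nurses of C26 were all low, at −6.13 to −3.20, so the castes of that colony lay far apart. The rest were mixed: 1 bee of each caste was high in C21 and in C27, and 3 of 5 nurses in C28. The caste difference was 1.87 ± 1.66 (SE) in fed bees with adjusted p = 0.366, and 1.89 ± 1.85 (SE) near corn with adjusted p = 0.506. Near corn the nurse pool of 2J2 was at 3.16 (8744 reads) and the 4 other nurse pools were at −4.12 to −9.10 (60 reads down to 1). The forager pools there were at −2.76, −1.85, −5.09, −2.24 and −2.43. Without the 2J2 nurse pool the difference was 3.87 with adjusted p = 0.0278. Away from corn, in pools that chose the list, only the forager pool of 1J9 was above the median gene. The other forager pools there were at −4.95 to −3.24 and the nurse pools at −6.49 to −1.59, with group medians of −3.54 and −3.74. The field difference of 1.29 that placed GB50423 in the list thus rested largely on the pool of 1J9. Its membership without that pool was not tested.

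**Figure D5:**
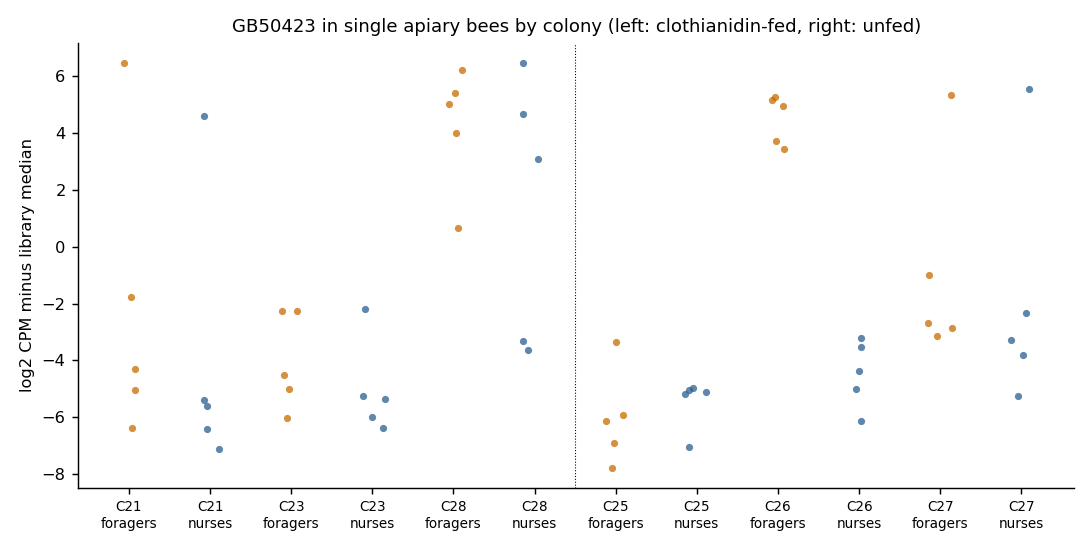
Level of GB50423 (log2 CPM minus the library's median gene) in 60 single apiary bees by colony, foragers in orange and nurses in blue, with clothianidin-fed colonies left of the dotted line. The bees of C28 and the foragers of C26 hold most of the high values, and those of C23 and C25 are all at −2.18 or lower.

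The smallest exposed differences were near 0. For GB47029, at rank 112, the forager minus nurse difference was 0.01 ± 0.33 (SE) in the fed bees and −0.01 ± 0.20 (SE) near corn, with adjusted p of 0.980 and 0.985, although it was 0.68 and 0.60 in the unexposed bees that chose it. It ran from −2.93 to 0.19 in fed foragers and from −2.77 to 0.40 in fed nurses, so the groups had nearly the same range. In the unfed bees, nurses were at −3.02 to −0.44 with a median of −2.27 and foragers at −2.84 to −0.44 with a median of −1.54. Near corn the forager pools were at −1.96 to −0.86 and the nurse pools at −1.83 to −0.97.

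The colonies were then compared within each fed caste, 5 bees of each of C21, C23 and C28. Among fed foragers no member differed between colonies after adjustment, by limma's F test or with voom weights. Before adjustment, 23 of the 150 members had a p under 0.05 by the F test, against 886 of the 9904 genes. The lowest adjusted p was 0.207, for GB50423, and 0.0747% of all genes were called. Among fed nurses 4 members were called, GB41435, GB55499, GB45913 and GB52992, with adjusted p of 0.0273 to 0.0424, against 1.13% of all genes. Before adjustment, 29 of the 150 members had a p under 0.05 there by the F test, against 2504 of the 9904 genes. That is a lower share of the members than of the genes, the reverse of the foragers. GB41435 was lower in C28 (−4.06 to −2.73) than in C23 (−1.61 to −0.91), with C21 between them (−2.99 to −1.76). GB55499 was lower in C21 (1.25 to 1.39) than in C23 (1.86 to 3.30) and C28 (2.13 to 2.66), and GB52992 likewise (3.30 to 3.55, 3.57 to 4.33 and 3.77 to 4.09). GB45913 was highest in C21 (2.81 to 4.37), against 2.19 to 2.68 in C23 and 2.75 to 3.64 in C28. All 5 nurses of C28 were sequenced in the first run and all 5 of C23 in the second, and none of the 4 was called with the run as a term. Without C23-N4 only GB41435 stayed below 0.05.

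The order of the fed colonies depended in part on single bees. With all bees, C21 had the lowest mean for 77 of 150 members among foragers and 83 among nurses, where 36.5% and 33.7% of the 9904 genes were lowest. C28 had the highest mean for 65 and 66 members, where 30.2% and 24.1% of the genes were highest. Without forager C21-F3, C21 was lowest for 46 members, C23 for 59 and C28 for 45, and they were highest for 62, 42 and 46. Without nurse C23-N4, C21 was lowest for 69 members and C23 for 59. C28 stayed highest among nurses, for 82 members, where 23.9% of the genes were highest. The mean over the members was −0.18 ± 0.45 in C21 foragers, −0.10 ± 0.20 in C23 and 0.07 ± 0.09 in C28 (SD, n = 5 bees), and that of C21 was 0.02 ± 0.11 without C21-F3 (SD, n = 4), above C23. In the nurses it was −1.24 ± 0.27, −1.09 ± 0.47 and −1.0 ± 0.40 (SD, n = 5), and that of C23 was −1.25 ± 0.35 without C23-N4 (SD, n = 4), about that of C21. These colony means lay within the spread of the bees.

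Exposure was set beside the list as a description, since the unexposed bees had chosen the members. Fed foragers minus unfed foragers had a median of −0.07 over the members, with 100 of 150 lower in the fed bees, against a median of 0.00 over the 9904 genes, of which 50.2% were lower. Fed minus unfed nurses had a median of −0.03, with 87 lower, where the genes had a median of −0.01 and 52.5% were lower. The fed bees here include forager C21-F3 and nurse C23-N4, with means over the members of −0.97 and −0.44. The exposure counts without these bees were not taken. Near minus away from corn the median was 0.08 in foragers, with 90 higher, against −0.02 and 46.1% of the genes. In the field nurses it was −0.09, with 89 lower, against −0.01 and 52.8%. No member separated fed from unfed bees of a caste, and 0% of the genes did. In the field, where pools did not overlap, the members' counts were near or below the background. In the foragers, GB43093 was higher in every pool near corn than in every pool away from it, by 0.46 in the mean, and Kr-h1 (by −0.63), GB50871, GB45400, GB53875 and GB45365 (by −0.37 to −0.29) were lower in every one. That is 1 member higher and 5 lower, against 0.646% and 5.25% of the genes. In the nurses no member was higher and 1 was lower, against 0.545% and 0.929%. That nurse difference was −4.27, for alpha-amylase, whose nurse pools near corn were at −2.11 or lower and those away from corn at −1.66 or higher. The name of this gene rests on the paper's fold change for the same contrast, so the name adds no separate support here.

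Within a group the members varied more than other genes did. The median SD over the 15 bees was 0.55 in fed foragers and 0.63 in fed nurses, against 0.21 in each over the 9904 genes, and 149 of the 150 members were above that median in each. In the pools near corn it was 0.31 in foragers and 0.30 in nurses, against 0.20 and 0.13. The members also had fewer reads than the other genes, a median of 604.5 in fed foragers and 298.5 in fed nurses against 1100.5 and 1135. The rule ranked genes by a difference not scaled by spread, which can favour genes with a wide spread. The parts of the rule and of depth in the members' spread were not tested. The pairwise correlation of members over bees had a median r of 0.21 in fed foragers, 0.26 in fed nurses, 0.17 in unfed nurses and 0.00 in unfed foragers, over 11175 pairs, and the median over all pairs of the 9904 genes was −0.01 to 0.00 in these groups. Without C21-F3 the value of the fed foragers was 0.05, and without C23-N4 that of the fed nurses was 0.21.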

How the data were processed

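RNA of 79 brain libraries was sequenced by the authors in pairs of 100 bases from stranded libraries, trimmed with Trimmomatic 0.36, aligned with STAR to the genome build Amel 4.5 and counted on the Official Gene Set 3.2. Low genes were removed and the values scaled with edgeR in R 3.6.3. The deposited values are log2 CPM, scaled by the authors in each of 4 tables (foragers and nurses of each study) on its own. For 2 columns the header gave the group but not the sample. Reads were worked back from the steps between the values, and for those under 20000 the distance to a whole number was at most 0.1.

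The reads were put into 1 table over 10714 genes, written as log2 CPM with 0.5 reads added, and each library's median was taken off. This scale serves all tests. The deposited values minus the median served only the choice of members. Tests were two-sided fits of limma 3.58.1 (R 4.3.3) with a mean-variance trend in eBayes and no covariate, adjusted by Benjamini and Hochberg over the 10714 genes, and were tested on simulated reads. A level of 0 is that of the library's median gene. Levels are not per length. Alternatives were other scalings and counts added, limma-voom, a level filter, colony, run or lane as a term, and leaving out colonies, pools or bees. Leaving out single bees was chosen after seeing the data. Title prefixes were taken as colonies, and castes of a colony were treated as paired in the block. Forager and nurse deviations of the same colony had correlations over 9904 genes of 0.13 to 0.26 in the 3 fed colonies and −0.05 to 0.34 in the 5 near corn.

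The members and lists were chosen with earlier results of these data known. Of the names, Kr-h1 and hairy came from the paper's tables, and alpha-amylase was paired through its fold change there. By rule, named genes were the members with a name and at most 2 other IDs, here GB43247 (first by rank) and GB50091 (no overlap among the fed bees). The other IDs were chosen after their values were seen. Figures were made with matplotlib 3.10.9 and Python 3.11.15.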

Additional observations from a re-analysis of the deposited data

Results flagged for a closer look

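In 48 checks of 12 quantities in the 4 field groups, 4 pools stood apart from the rest of their group, where chance gives about 1 in 20. Some of these quantities were chosen after their values were seen and some vary together, so that rate is only a rough guide. Alpha-amylase was at 4.48 in the forager pool of 2J7 away from corn, and the next pool was at 2.78. GB50423 was at −5.09 in the forager pool of 2J3 near corn, below the next at −2.76, and at 3.6 in the forager pool of 1J9 away from corn, above the next at −3.24. GB45427, the member most like Kr-h1, was at −0.58 in the nurse pool of 2J7 away from corn, while the next was at −2.03. That pool also had the highest mean over the members of its group. The pools of 1J9 and 2J7 were those sequenced apart from the other field pools, while that of 2J3 was not. The part of run or lane in these values was not tested. Groups of 15 bees were not checked in this way.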

How the results depend on the processing

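The direction of the caste difference over the list, and its count of calls, held within 1.5 times under the other scalings, voom weights, filter, added reads and fits without a trend, and without single pools. For the fed bees the count was 83 with the second run alone, 101 to 119 without 1 colony, 97 on colony means with the replicate block and 130 with colony as a block among single bees. Near corn it was 132 with the replicate block and 110 to 134 without 1 pool. Between colonies the count was 0 to 1 without 1 colony in the fed foragers and 0 to 1 in the fed nurses, 0 for nurses with the run as a term and 1 without C23-N4. A level minimum of 3 kept 83 of the 150 members, and the other changes of the rule kept 112 to 149. GB47029, near 0, changed sign: in the fed bees it was −0.051 with quantile normalization, −0.063 on total reads, −0.0023 with the run as a term, −0.36 in the second run, −0.042 without C23-N1 and −0.076 to 0.15 without 1 colony, and near corn 0.011 by voom, 0.056 on total reads and −0.14 to 0.14 without 1 pool. The cause was not tested.

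Over all genes, calls higher and lower in fed foragers fell from 2692 and 2223 to 543 and 302 on colony means with the replicate block, 1299 and 1110 without C28, and 1401 and 985 in the second run. Near corn they fell from 788 and 1088 to 372 and 518 at the lowest without 1 pool. Between colonies, 8 genes among foragers became 5 with the level filter or no trend and 2 with the run as a term, and 121 among nurses became 2 to 16 without 1 colony, 20 with the run and 37 without C23-N4.

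The 5 or 4 pools of a field group and the 3 colonies of an apiary group limit the precision of each value, and the lowest member value, 1 read of GB50423 in a nurse pool near corn, is at the limit of depth.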
